A study of Rattus norvegicus with 12 samples.

Results

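Oxidative phosphorylation is the route by which mitochondria turn the oxidation of nutrients into ATP, and its nuclear-encoded genes were examined here in cultured rat hippocampal neurons whose fast glutamate receptors had been blocked. The set was all rat genes whose symbol starts with Nduf, Uqcr, Cox4 to Cox8, Atp5 or Sdh, plus Cyc1, found through the RefSeq transcript that each array probe was designed for. It gave 85 genes on the array, and 84 of the 21281 genes or unnamed targets tested across the array, since Cox8c was not well above background on all arrays of any group. Cyc1, Cox7a1, Atp5mc3 and Ndufa4l2 were among 39 protein-coding symbols of the rule with no matched probe and were not analysed here. By complex, 32 genes encode subunits of complex I, 4 of complex II, 8 of complex III, 16 of complex IV and 14 of complex V, and 10 encode assembly factors or regulators. Complex IV was counted with Ndufa4 and with Cox6c-ps1, a Cox6c pseudogene whose probe may also take up signal from Cox6c itself.

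Hippocampal neurons came from Wistar rat embryos of day 18 and were grown for 14 to 15 days before use. Blocked cultures received GYKI-52466 at 50 µM, an antagonist of AMPA receptors, together with MK-801 at 10 µM, a channel blocker of NMDA receptors, for 9 h or 26 h, and untreated cultures of the same 2 times had neither agent. Each of the 4 groups held 3 independent cultures, each with its own single-colour array, so 12 arrays in all. These are mixed cultures of embryonic origin rather than sorted neurons, and in such bulk RNA fewer cells of a type and less RNA per cell cannot be told apart.

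Electrons from NADH enter the chain at complex I and those from succinate at complex II, pass through ubiquinone to complex III, and move by cytochrome c to complex IV, which reduces oxygen. Complexes I, III and IV pump protons across the inner membrane, and complex V, the ATP synthase, lets them back and makes ATP. Neurons draw most of their ATP from this chain, and the ion pumping that follows excitatory synaptic input is one of its main uses. The nuclear respiratory factors NRF1 and GABP (which binds ETS sites) and the factor YY1 are known regulators of these genes in mammals.

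Each array had 42877 spots besides controls, of which 77.6% to 86.8% were well above background. Scanning took 2 days: day 1 held the arrays of blocked 26 h and of untreated 9 h cultures, and day 2 held those of blocked 9 h and of untreated 26 h cultures. The effect of blockade at a single time therefore cannot be told apart from the scan day, whereas the mean of both effects, and the mean difference between 26 h and 9 h, weigh the days equally. As a check of the treatment, all 9 of 9 activity-regulated genes of a fixed list were lower in blocked cultures in the mean of both times. Bdnf, a growth factor gene driven by synaptic activity, lay between -3.02 and -2.76 in blocked and between 0.26 and 0.78 in untreated cultures at 26 h, in log2 units relative to the array's 75th percentile, the scale of every level given here. In every group the third replicate held more signal of several meningeal, fibroblast and vascular markers. Over 11 such markers its median excess over the other two replicates was 2.11 log2, against -0.02 for the oxidative phosphorylation genes saturated on no array. The markers were split, with 6.72 for Ptgds and 2.25 for Col1a1, but 0.07 for Lum, 0.0 for Vtn, -0.2 for Dcn and -0.31 for Pecam1.

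Brightness set a limit on these genes that it did not set on most others. The probes of 77 of 84 genes lay above the 75th percentile of the array on every array, and 6 below it on every array. The scanner's ceiling was reached on at least 1 array by 45.2% of the oxidative phosphorylation genes, against 3.76% of all genes tested, and on every array by 13.1%, against 1.45%. Of the 84 genes, 46 were saturated on no array, 27 on some and 11 on all 12. The 11 were Atp5f1a, Atp5f1e, Atp5mc1, Atp5me, Atp5pb and Atp5po of complex V, Cox4i1, Cox6a1 and Cox8a of complex IV, Uqcr10 of complex III and Ndufb8 of complex I. No fold can be read for these genes. All 4 genes of complex II were free of saturation, as were 17 of 32 of complex I, 4 of 8 of complex III, 8 of 16 of complex IV, 5 of 14 of complex V and 8 of 10 assembly factors and regulators.

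The ceiling left a trace that resembles a change. The median raw log2 signal of the members saturated on every array was between 15.88 and 15.92 on each of the 12 arrays. Once the array's own 75th percentile was subtracted, the same genes deviated from their means by a median of -0.07, -0.50 and -0.20 log2 on the blocked 26 h arrays, against 0.23, 0.11 and 0.31 on the untreated 26 h arrays. Their fitted 26 h differences ran from -0.53 to -0.43 log2 and those at 9 h from 0.16 to 0.26. The second blocked 26 h array, with 38 members at the ceiling, and the first untreated 9 h array, with 24, had the highest 75th percentiles, 4643.0 and 4649.2 intensity units, against 2648.9 to 3813.9 on the others. The 46 members that never reached the ceiling deviated by 0.05, 0.08 and 0.07 on the blocked 26 h arrays, against 0.12, -0.01 and 0.01 on the untreated 26 h arrays.

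**Figure D1:**
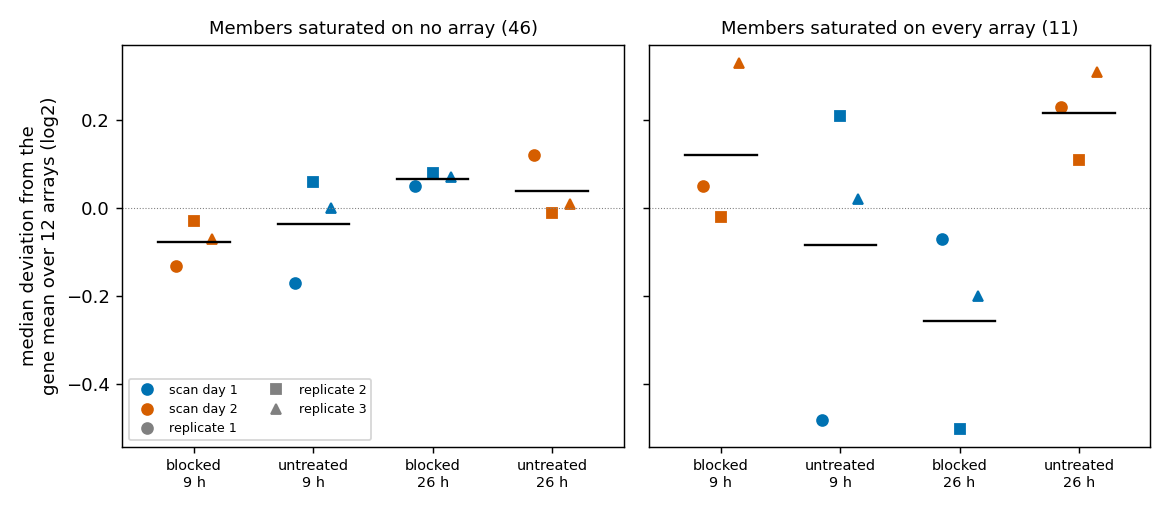
Each point is 1 array; the vertical axis is the median deviation of the named members from their own means over the 12 arrays, in log2 units, the horizontal axis gives the group, bars are group means, colour the scan day and shape the replicate. Members saturated on every array (right) spread from -0.50 to 0.33, and members saturated on no array (left) from -0.17 to 0.12.

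The first question was whether blockade changed the expression of the chain and of ATP synthase. In the mean of both times, no oxidative phosphorylation gene passed the test: 0 of 84 were called, against a background of 4.45% of all genes, 2.23% higher and 2.22% lower (limma, adjusted p below 0.05 by Benjamini-Hochberg over all genes), and 1 of 84 had an unadjusted p below 0.05, against 16.4% of all genes. The median difference was -0.05 log2, and -0.02 for the 46 members saturated on no array, which was also the median of all genes. Of the 84 members 20 had a positive difference, 23.8%, against 44.5% of all genes. All 11 members saturated on every array were negative. Among members saturated on no array 14 of 46 were positive, 30.4%, against 45.9% of all genes saturated on no array. The 95% interval of the difference lay within 0.5 log2 of 0 for 81 of 84 members, compared with 62.7% of all genes. The exceptions were the muscle isoforms Cox6a2 and Cox8b and the often saturated Ndufb4. The 81 include the 11 members saturated on every array, for which no fold can be read. Among members saturated on no array, 44 of 46 had such an interval, against 61.4% of all genes saturated on no array. The width of an interval follows the SE, whose median was 0.07 for these members and 0.12 for those genes. These shares therefore also reflect precision. Of these 46 members 0 were called, against 4.6% of all genes saturated on no array.

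The gene nearest to a call was Ndufa7, an accessory subunit of complex I. Its levels were -1.03, -0.92 and -0.94 in blocked and -1.25, -1.07 and -1.15 in untreated cultures at 9 h, and -0.93, -0.77 and -1.0 in blocked and -1.10, -1.03 and -1.07 in untreated cultures at 26 h. The blocked arrays lay above the untreated ones of their time without overlap. In either direction, the groups did not overlap for 34.7% of all genes at 9 h and 38.1% at 26 h. The mean difference was 0.18 ± 0.06 log2 (SE), with an adjusted p of 0.176 in the limma fit and 0.0465 with the replicate number as a block. With that block Ndufa7 was the 1 member called of 84, against 13.1% of all genes.

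Complex I subunits lay close to 0 in the same contrast. The 17 subunits saturated on no array had a median of -0.01 and ran from -0.08 to 0.18. Ndufs1, the largest subunit of the arm that carries the electrons, differed by 0.02 ± 0.06 (SE), with a 95% interval from -0.12 to 0.15. Ndufv1, which binds NADH, differed by -0.13 ± 0.08 with 1 blocked 26 h array at the ceiling. Ndufb4, an accessory subunit of the membrane arm, had the lowest value, -0.27 ± 0.12, but was saturated on all 3 blocked 26 h and all 3 untreated 9 h arrays. A second Ndufb4 probe, free of saturation, gave -0.01.

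Complex II, which is also an enzyme of the citric acid cycle, showed mean differences of 0.03 for its flavoprotein Sdha, -0.07 for its iron-sulfur protein Sdhb, and -0.06 and 0.07 for the membrane anchors Sdhc and Sdhd. None of the 4 intervals reached beyond -0.22 or 0.22. In complex III, Uqcrfs1, the Rieske iron-sulfur protein, differed by -0.01 ± 0.06 with an interval from -0.16 to 0.13. Uqcrh, the hinge protein, had the lowest fitted value of the complex, -0.16, with 10 of 12 arrays at the ceiling.

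Complex IV has tissue isoforms of several subunits. Cox6b1, the general isoform, had -0.00 ± 0.07, and Cox6b2, described as the testis isoform in mammals, 0.01 ± 0.07. Cox4i2, the isoform known from lung, had 0.07 ± 0.12, while its partner Cox4i1 was saturated on all arrays. Cox5a, a subunit without such isoforms, differed by -0.05 ± 0.08, Ndufa4 by -0.07 ± 0.11 with 3 arrays at the ceiling, and Cox7a2 by -0.13 ± 0.09 with 1. Cox8b, a muscle isoform, was dim in every group, with means of -6.00 and -6.02 in blocked and -6.23 and -6.23 in untreated cultures at 9 h and 26 h, and its interval ran from -0.28 to 0.73.

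Cox6a2, the other muscle isoform, followed the replicate rather than the treatment. Its levels were -1.39, -1.24 and -2.22 in blocked and -1.31, -1.16 and -2.09 in untreated cultures at 9 h. At 26 h they were -1.39, -1.68 and -2.57 in blocked and -1.0, -1.83 and -2.52 in untreated cultures. The third replicate was the lowest of every group. In that replicate the median excess over the other two was 2.11 log2 for meningeal, fibroblast and vascular markers, 0.40 for oligodendrocyte, 0.28 for proliferation and 0.25 for astrocyte markers, and -0.53 for interneuron markers. Their part in the Cox6a2 levels was not tested.

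Complex V had 9 of 14 genes at the ceiling on some array. Among the 5 that were not, Atp5pd, a subunit of the peripheral stalk, differed by -0.00 ± 0.08, and Atp5f1b, the catalytic beta subunit of the head, by -0.10 ± 0.16. Atp5f1d, the delta subunit of the central stalk, gave -0.13 ± 0.09. The c-ring gene Atp5mc2 had -0.14 ± 0.11 with 2 blocked 26 h arrays saturated, and Atp5mg, a membrane subunit, -0.14 with 7 arrays saturated. Among assembly factors and regulators, Sdhaf2, which attaches flavin to Sdha, had the highest difference, 0.10 ± 0.09, and Ndufaf4, an assembly factor of complex I, the lowest, -0.14 ± 0.07.

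**Figure D2:**
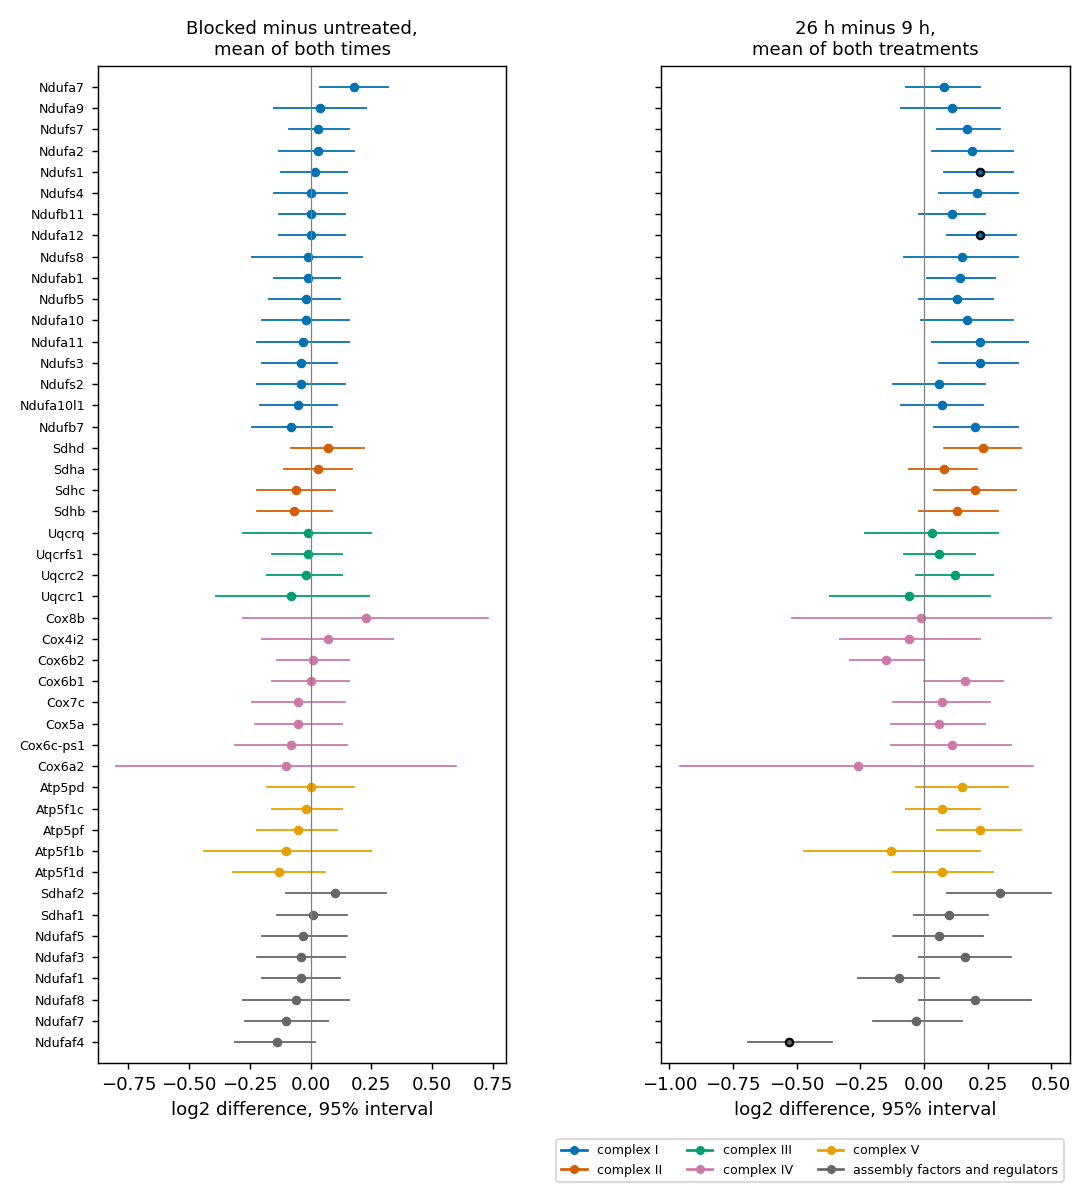
The 46 members saturated on no array, 1 per row and coloured by complex; points are log2 differences and lines their 95% intervals, for blocked minus untreated (left) and 26 h minus 9 h (right), and a black rim marks an adjusted p below 0.05. No member has a rim on the left, while on the right all 17 complex I subunits lie above 0 and Ndufaf4 stands at -0.53.

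At single times, where treatment and scan day cannot be told apart, differences were larger and turned over between 9 h and 26 h. At 9 h, 3 of 84 members were higher and 9 lower in blocked cultures, 14.3%, against 21.0% of all genes, 11.4% higher and 9.63% lower. At an unadjusted p below 0.05 it was 22 members, against 33.7% of all genes. At 26 h, 8 were higher and 4 lower, again 14.3%, against 16.3% of all genes, 6.85% higher and 9.44% lower. At an unadjusted p below 0.05 it was 38 members, 45.2%, against 32.2% of all genes. The 38 include all 11 members saturated on every array. These shares include saturated members. Among members saturated on no array, 21.7% were called at 9 h and 23.9% at 26 h. For all genes saturated on no array the shares were 21.6% and 16.7%. At an unadjusted p below 0.05 it was 34.8% of these members at 9 h and 37.0% at 26 h. For all genes saturated on no array it was 34.5% and 30.9%. Of the 9 members called at both times, all 9 had opposite signs, as had 1559 of the 1805 genes called at both times across the array. Called or not, opposite signs were seen in 69 of 84 members, or 82.1%, against 67.2% of all genes. The difference between the 9 h and 26 h effects, which is the same contrast as scan day, was called for 25 members, 29.8%, against 28.6% of all genes, and had an unadjusted p below 0.05 for 47 members, against 41.0% of all genes. The 47 include all 11 members saturated on every array, of which 0 were called. Among members saturated on no array 41.3% were called, against 29.0% of all genes saturated on no array. With the replicate number as a block, 19 members were called at 9 h and 17 at 26 h, against 35.8% and 31.7% of all genes.

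Cox6b2 had the highest 9 h value of the set. Its levels were 3.05, 2.85 and 2.95 in blocked and 2.08, 2.30 and 2.26 in untreated cultures at 9 h, and 2.08, 2.05 and 2.10 in blocked and 2.76, 2.88 and 2.75 in untreated cultures at 26 h. The difference was 0.74 ± 0.09 log2 at 9 h (SE, limma adjusted p = 0.00113) and -0.71 ± 0.09 at 26 h (limma adjusted p = 0.00175). All 6 arrays of day 2, with a mean of 2.87, lay above all 6 arrays of day 1, with a mean of 2.15.

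The pseudogene Cox6c-ps1 ran the other way. Its levels were 0.53, 0.55 and 0.74 in blocked and 1.20, 1.71 and 1.31 in untreated cultures at 9 h, and 1.46, 1.41 and 1.43 in blocked and 0.99, 0.58 and 0.81 in untreated cultures at 26 h. The groups did not overlap at either time, and the differences were -0.80 ± 0.15 at 9 h (limma adjusted p = 0.00493) and 0.64 ± 0.15 at 26 h (limma adjusted p = 0.0176). Its second probe gave -1.09 and 0.76. Without overlap at 9 h, 11 members were higher and 17 lower in blocked cultures, against 34.7% of all genes. At 26 h it was 15 higher and 32 lower, against 38.1%. These counts include saturated members. Complete separation of the 2 scan days was seen for 9 of 84 members, 6 higher and 3 lower on day 2, against 10.9% of all genes.

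Within complex II the subunits of 1 enzyme moved in opposite directions at each time. Sdha, the flavoprotein, had levels of 2.67, 2.58 and 2.48 in blocked and 2.12, 2.21 and 2.20 in untreated cultures at 9 h. At 26 h they were 2.20, 2.38 and 2.28 in blocked and 2.67, 2.61 and 2.57 in untreated cultures. Its difference was 0.40 ± 0.09 at 9 h (limma adjusted p = 0.0112) and -0.33 ± 0.09 at 26 h (limma adjusted p = 0.0305), without overlap of the groups.

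Sdhd, a membrane anchor, had levels of 2.46, 2.60 and 2.50 in blocked and 2.77, 2.99 and 2.82 in untreated cultures at 9 h. At 26 h they were 3.14, 3.19 and 3.14 in blocked and 2.80, 2.62 and 2.61 in untreated cultures. The difference was -0.34 ± 0.10 at 9 h (limma adjusted p = 0.0291) and 0.48 ± 0.10 at 26 h (limma adjusted p = 0.00943), the reverse of Sdha. The second anchor, Sdhc, gave -0.37 (limma adjusted p = 0.0318) and 0.24 (limma adjusted p = 0.137), and Sdhb gave -0.15 and 0.02, neither called. The 2 assembly factors of the complex ran with the anchors: Sdhaf1, which serves the iron-sulfur protein, had -0.38 (limma adjusted p = 0.0167) and 0.40 (limma adjusted p = 0.0191), and Sdhaf2 -0.27 (not called, adjusted p = 0.175) and 0.48 (limma adjusted p = 0.0348). Sdhc and Sdhaf1, like Ndufs7, Cox7c, Ndufaf3, Ndufa6 and Ndufb2 below, were named after their values were seen.

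**Figure D3:**
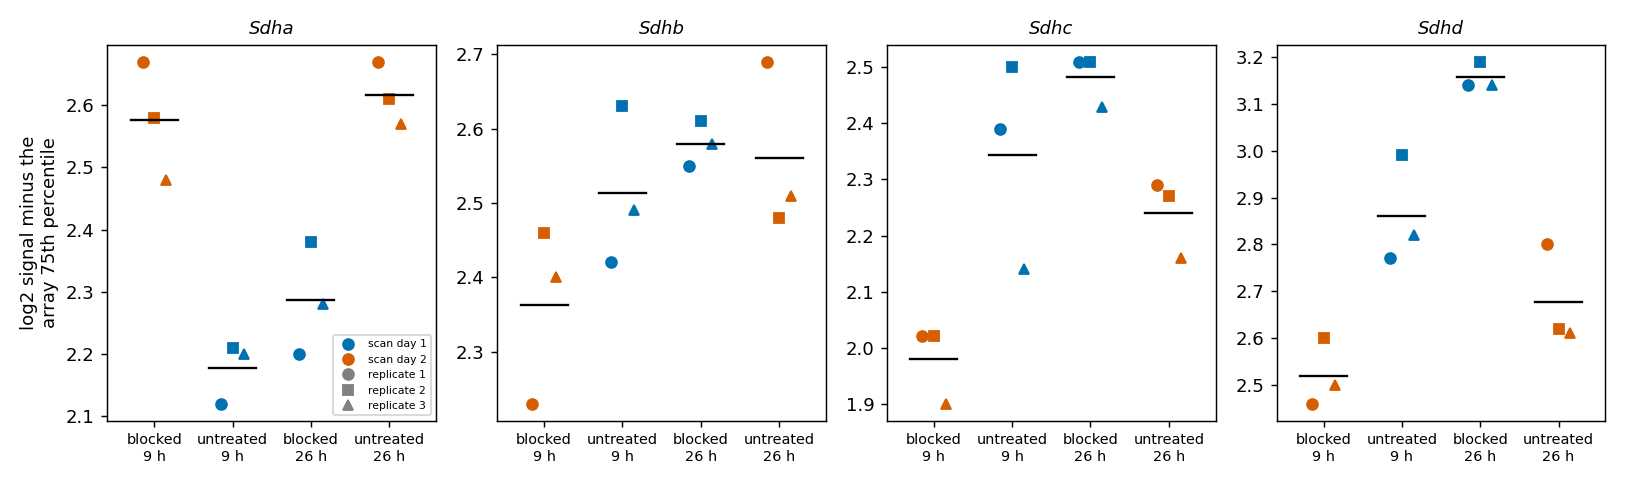
Levels of the 4 complex II genes on each array, in log2 units relative to the array's 75th percentile, by group; bars are group means, colours the scan day and shapes the replicate, and each panel has its own vertical range. Sdha is high in blocked 9 h and untreated 26 h cultures, both scanned on day 2, and Sdhc and Sdhd are low there.

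Promoters of Sdha and Sdhd are shown because both genes serve 1 enzyme and moved in opposite directions. They are 300 bases of RefSeq on the GRCr8 build, 250 before and 50 after the annotated start, written 5′ to 3′ on the gene's strand. Sdha lies at chr1:30764303-30764602 on the + strand and Sdhd at chr8:59850592-59850891 on the - strand. Capitals mark matches to the motifs searched on both strands: NRF1 (its consensus), the ETS core (CCGGAAG), YY1 (AANATGGCG), SP1 (GGGCGG), CRE (TGACGTCA) and the TATA box (TATAAA).
Sdha: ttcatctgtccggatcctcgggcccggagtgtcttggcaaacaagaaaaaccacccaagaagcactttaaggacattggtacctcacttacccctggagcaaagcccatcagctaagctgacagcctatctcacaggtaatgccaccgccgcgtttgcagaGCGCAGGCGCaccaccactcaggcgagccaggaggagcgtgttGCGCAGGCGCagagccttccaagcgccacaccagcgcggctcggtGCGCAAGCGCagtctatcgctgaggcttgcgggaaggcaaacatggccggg
Sdhd: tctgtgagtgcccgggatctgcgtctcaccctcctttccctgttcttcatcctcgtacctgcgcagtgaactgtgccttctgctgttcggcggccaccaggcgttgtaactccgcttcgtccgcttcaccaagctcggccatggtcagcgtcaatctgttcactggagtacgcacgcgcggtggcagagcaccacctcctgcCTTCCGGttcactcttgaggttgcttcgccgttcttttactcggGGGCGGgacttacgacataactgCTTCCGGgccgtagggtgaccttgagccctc
The Sdha window held 3 NRF1 matches, from bases 162, 205 and 250, and the Sdhd window 2 ETS core matches, from bases 203 and 270, with an SP1 match from base 247. A match describes these letters and is no evidence that a factor binds.

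In the other complexes, Ndufs7, an iron-sulfur subunit of complex I near the ubiquinone site, differed by 0.38 ± 0.08 at 9 h (limma adjusted p = 0.00872) and by -0.31 ± 0.08 at 26 h (limma adjusted p = 0.0250). Cox7c of complex IV differed by -0.53 ± 0.12 (limma adjusted p = 0.0133) and 0.42 ± 0.12 (limma adjusted p = 0.0418). Cox7a2 gave -0.39 ± 0.12 at 9 h (limma adjusted p = 0.0434) and 0.14 at 26 h, but its second probe gave only -0.16 at 9 h. Atp5f1d was lower at 26 h, by -0.45 ± 0.12 (limma adjusted p = 0.0322), and not called at 9 h, at 0.19. Ndufb2 was lower at 9 h, by -0.51 (limma adjusted p = 0.0288), and Ndufa6 higher at 26 h, by 0.37 (limma adjusted p = 0.0256), both accessory subunits of complex I with 1 blocked 26 h array at the ceiling.

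Of the 10 assembly factors and regulators of the rule, 0 had a positive difference at 9 h, against 52.2% of all genes, and 8 had one at 26 h, against 44.3%. Their medians were -0.18 and 0.14. Called were 3 lower at 9 h, Ndufaf8, Ndufaf3 and Sdhaf1, against 9.63% of all genes, and 4 higher at 26 h, those 3 and Sdhaf2, against 6.85%. The 34 assembly factors named outside the rule were mixed: 4 were higher and 7 lower at 9 h, with a median of -0.07, and 4 higher and 2 lower at 26 h, with a median of 0.01. Ndufaf8, an assembly factor of complex I, had levels of 1.49, 1.53 and 1.79 in blocked and 1.92, 2.43 and 2.18 in untreated cultures at 9 h, and 2.27, 2.32 and 2.37 in blocked and 1.85, 1.74 and 1.99 in untreated cultures at 26 h. Its differences were -0.58 ± 0.14 (limma adjusted p = 0.0166) and 0.46 ± 0.14 (limma adjusted p = 0.0488), and the groups of each time did not overlap. Ndufaf3 gave -0.46 (limma adjusted p = 0.0190) and 0.38 (limma adjusted p = 0.0473).

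**Figure D4:**
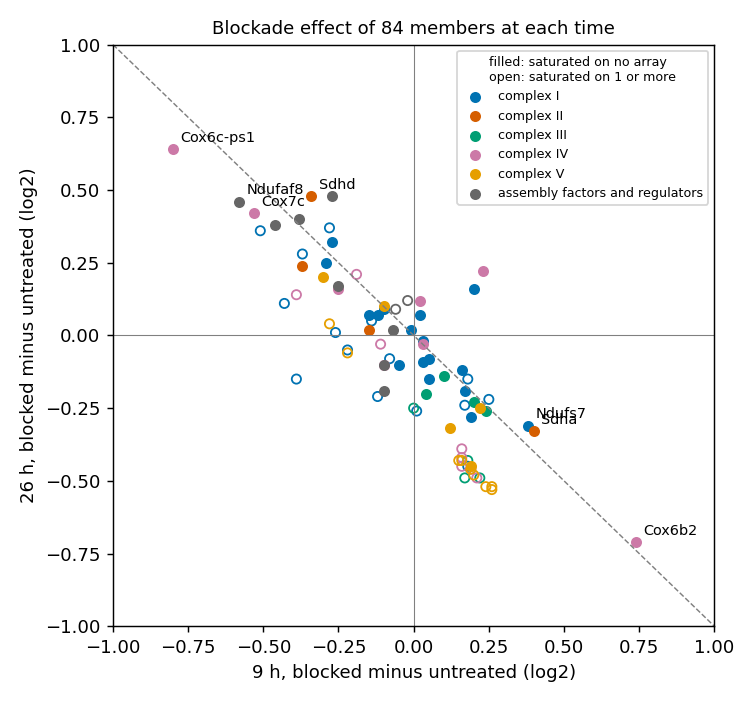
The difference of blocked minus untreated cultures at 9 h (horizontal) and 26 h (vertical) for 84 members, in log2 units, coloured by complex; open points were saturated on at least 1 array and the dashed line marks equal size with opposite sign. Points run along that line from Cox6c-ps1 at -0.80 and 0.64 to Cox6b2 at 0.74 and -0.71, and the members saturated on every array have medians of 0.20 and -0.48.

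Several of these calls were lost when 1 array was left out. When each of the 12 arrays was left out in turn, Cox6b2 stayed past the threshold all 12 times at both times, Cox6c-ps1, Sdha and Ndufs7 all 12 times at 9 h, and Sdhd all 12 times at 26 h. The number of members called ran from 5 to 15 at 9 h and from 2 to 28 at 26 h. At 9 h the count was 5 without the second untreated 9 h or the second blocked 9 h array, 6 without the first and 7 without the third blocked 9 h array. At 26 h it was 28 without the first untreated 9 h array, 2 without the first blocked 26 h or the second untreated 26 h array, 3 without the second blocked 26 h or the third untreated 26 h array, and 4 without the third blocked 26 h array. Without the third replicate of every group, 2 members were called at 9 h and 0 at 26 h.

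The second question was how the same genes differed between 26 h and 9 h of the experiment, over both treatments. Here 3 of 84 were higher at 26 h and 1 lower, 4.8%, against 12.7% of all genes, 4.91% higher and 7.76% lower. Among members saturated on no array 6.5% were called, against 13.1% of all genes saturated on no array. The median difference was 0.07 log2, and 0.11 for members saturated on no array, against -0.02 for all genes. In complex I, 31 of 32 subunits had a positive difference, with a median of 0.13, and the 17 saturated on no array were all positive, from 0.06 to 0.22, with a median of 0.17. Under quantile normalization 16 of these 17 were positive and their median was 0.12. All 6 of the 26 h arrays, with complex I medians between 0.03 and 0.11, lay above all 6 of the 9 h arrays, between -0.23 and 0.01. Complex II was positive for 4 of 4 genes, with a median of 0.17. Among the genes saturated on no array, complex III was positive for 3 of 4, complex IV for 4 of 8 and complex V for 4 of 5, with medians of 0.04, 0.02 and 0.07. With the saturated genes counted too, it was 3 of 8, 8 of 16 and 6 of 14. Of the assembly factors and regulators 7 of 10 were positive, with a median of 0.10. Of those saturated on no array it was 5 of 8, with a median of 0.08. Of all genes, 46.6% were positive.

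The 3 genes called higher were all complex I subunits. Ndufs1 had levels of 2.27, 2.33 and 2.21 in blocked and 2.51, 2.35 and 2.34 in untreated cultures at 26 h, and 2.14, 2.27 and 2.19 in blocked and 1.97, 2.06 and 2.09 in untreated cultures at 9 h. The difference was 0.22 ± 0.06 (SE, limma adjusted p = 0.0456). It was 0.07 between blocked cultures, which overlapped, and 0.36 between untreated cultures, which did not. Within 1 treatment the 2 times were scanned on different days, in opposite order for blocked and untreated cultures, so these separate values, here and for the next 3 genes, cannot be told apart from scan day.

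Ndufa12, an accessory subunit next to the iron-sulfur arm, had 3.33, 3.41 and 3.32 in blocked and 3.38, 3.35 and 3.29 in untreated cultures at 26 h. At 9 h it had 3.12, 3.21 and 3.04 in blocked and 3.05, 3.21 and 3.13 in untreated cultures. All 26 h arrays lay above all 9 h arrays, and the difference was 0.22 ± 0.06 (limma adjusted p = 0.0379), 0.23 between blocked and 0.21 between untreated cultures.

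Ndufb10, an accessory subunit of the membrane arm, had 3.67, 3.53 and 3.61 in blocked and 3.84, 3.68 and 3.74 in untreated cultures at 26 h. At 9 h it had 3.58, 3.50 and 3.43 in blocked and 3.29, 3.33 and 3.35 in untreated cultures. The difference was 0.27 ± 0.06 (limma adjusted p = 0.0187), 0.10 between blocked and 0.43 between untreated cultures, with 1 blocked 26 h array at the ceiling. A second probe, never saturated, gave 0.30.

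Ndufaf4 fell while the subunits of the complex it helps to build, and 7 of the 10 assembly factors and regulators, did not. Its levels were -0.16, -0.26 and -0.34 in blocked and -0.04, -0.06 and -0.11 in untreated cultures at 26 h, against 0.31, 0.28 and 0.37 in blocked and 0.63, 0.29 and 0.34 in untreated cultures at 9 h. All 26 h arrays lay below all 9 h arrays. The difference was -0.53 ± 0.07 (limma adjusted p = 0.00199), -0.58 between blocked and -0.48 between untreated cultures, and its other 3 probes gave -0.51, -0.45 and -0.41. Of 84 members, 3 (Ndufa12, Ndufaf4 and Ndufa11, the last named after its values were seen) had the 6 arrays of 26 h apart from the 6 of 9 h, against 3.9% of all genes.

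**Figure D5:**
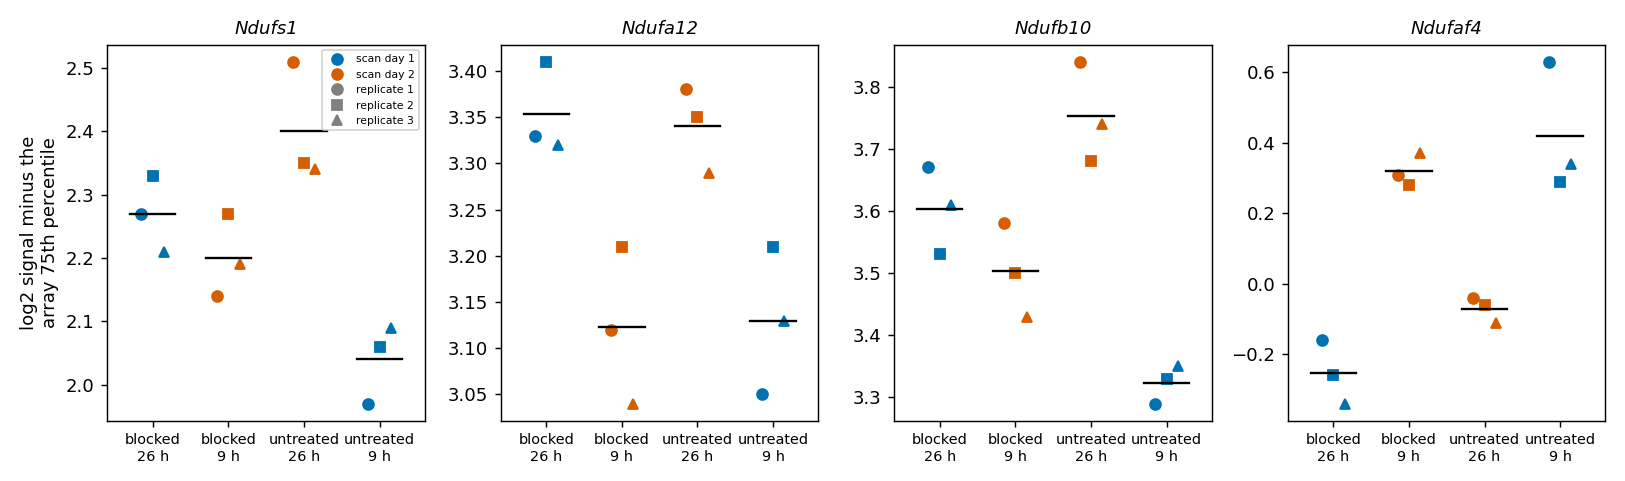
Levels of the 4 genes called between 26 h and 9 h on each array, in log2 units relative to the array's 75th percentile, with group means as bars, scan day as colour and replicate as shape; each panel has its own vertical range. Ndufa12 is higher and Ndufaf4 lower on every 26 h array than on any 9 h array, while the blocked cultures of both times overlap for Ndufs1 and Ndufb10.

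The 4 calls differed in how often they held. Over the 12 fits that each left out 1 array, Ndufaf4 was called 12 times, Ndufb10 11 times, Ndufa12 2 times and Ndufs1 0 times, and the differences of the 4 genes kept their sign in all alternatives. The number of members called was 1 without the third blocked 9 h array, 3 without the second blocked 9 h array, 7 without the second untreated 9 h array and 2 without any of the other 9 arrays. With the third replicate of every group left out, 0 of 84 were called. With the replicate number as a block, 14 were called, 13 higher and 1 lower, against 26.7% of all genes, and the added ones included Sdhd at 0.23 (limma adjusted p = 0.0256 in that fit) and Sdhaf2 at 0.30 (limma adjusted p = 0.0226).

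Promoters of the 4 genes called between 26 h and 9 h are shown because the called subunits were higher and Ndufaf4 was lower. They follow the same conventions, with Ndufs1 at chr9:72073556-72073855 on the - strand, Ndufa12 at chr7:30658066-30658365 on the + strand, Ndufb10 at chr10:14255917-14256216 on the - strand and Ndufaf4 at chr5:43401545-43401844 on the + strand.
Ndufs1: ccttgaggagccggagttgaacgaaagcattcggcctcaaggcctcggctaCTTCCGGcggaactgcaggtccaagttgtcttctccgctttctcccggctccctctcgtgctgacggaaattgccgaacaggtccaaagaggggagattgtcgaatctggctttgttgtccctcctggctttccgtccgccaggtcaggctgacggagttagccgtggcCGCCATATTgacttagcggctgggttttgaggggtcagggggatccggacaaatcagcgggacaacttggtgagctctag
Ndufa12: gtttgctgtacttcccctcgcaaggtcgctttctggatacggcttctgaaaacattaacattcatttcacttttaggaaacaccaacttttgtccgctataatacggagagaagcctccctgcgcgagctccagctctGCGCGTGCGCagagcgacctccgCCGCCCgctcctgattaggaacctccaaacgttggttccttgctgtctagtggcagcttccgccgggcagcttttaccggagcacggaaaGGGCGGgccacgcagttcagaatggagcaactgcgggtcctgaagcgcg
Ndufb10: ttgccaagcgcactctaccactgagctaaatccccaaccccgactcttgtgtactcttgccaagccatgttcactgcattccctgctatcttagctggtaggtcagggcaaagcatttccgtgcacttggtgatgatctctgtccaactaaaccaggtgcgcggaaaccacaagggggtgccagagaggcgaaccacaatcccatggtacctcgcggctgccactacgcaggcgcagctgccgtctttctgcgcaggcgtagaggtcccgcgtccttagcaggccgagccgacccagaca
Ndufaf4: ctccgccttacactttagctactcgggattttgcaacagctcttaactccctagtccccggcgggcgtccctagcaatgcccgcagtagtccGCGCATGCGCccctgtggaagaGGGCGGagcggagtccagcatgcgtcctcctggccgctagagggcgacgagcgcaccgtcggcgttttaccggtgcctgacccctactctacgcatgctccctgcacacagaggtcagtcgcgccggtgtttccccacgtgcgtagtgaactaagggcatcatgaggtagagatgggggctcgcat
The Ndufs1 window held an ETS core and a YY1 match, from bases 52 and 221. Ndufa12, which was higher, and Ndufaf4, which was lower, each held an NRF1 match, from bases 139 and 93, and SP1 matches. In the Ndufb10 window none of the 6 motifs was matched.

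Over the 74 members with a RefSeq promoter, NRF1 was matched in 14 windows, 18.9%, against 4.3% of all 33469 promoters of that length. The ETS core was matched in 24, 32.4% against 8.7%, and YY1 in 15, 20.3% against 3.0%. SP1 was matched in 43.2% against 33.1%, CRE in 5.4% against 1.8% and TATA in 8.1% against 14.2%. The SP1 letters are part of many GC-rich windows, and no test was made of these shares.

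Genes that regulate or build the chain were followed through fixed lists. In the mean effect of blockade, 0 of 22 regulators of mitochondrial biogenesis were called, with a median of -0.03, and 0 of 34 assembly factors named outside the rule, with a median of -0.02. Of 18 genes for electron carriers and coenzyme Q synthesis 1 was called, and 0 of 16 carriers and uncoupling proteins. With 4.45% of all genes called, counts this low in lists of this size are near the background. The 1 call was Coq8a, an ADCK-family protein needed for coenzyme Q synthesis. It had levels between -2.00 and -1.35 in blocked and between -2.81 and -2.57 in untreated cultures at 9 h, and between -2.01 and -1.68 in blocked and between -2.42 and -2.23 in untreated cultures at 26 h. The blocked arrays lay above the untreated ones at both times, and the mean difference was 0.76 ± 0.12 (SE, limma adjusted p = 0.00512). The 13 mitochondrially encoded subunits had no matched probe and were not analysed here.

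Between 26 h and 9 h, 1 of the 22 regulators was higher and 5 were lower, against 4.91% and 7.76% of all genes. The 6 genes given here were named after their values were seen. Nrf1, the nuclear respiratory factor, had levels between -3.65 and -3.25 in blocked and between -3.15 and -2.90 in untreated cultures at 26 h, against -2.62 to -2.12 in blocked and -2.46 to -2.15 in untreated cultures at 9 h. Every 26 h array lay below every 9 h array, and the difference was -0.94 ± 0.11 (limma adjusted p = 0.000906).

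Tfam, which packages mitochondrial DNA, had levels of 0.61 to 0.67 in blocked and 0.68 to 0.75 in untreated cultures at 26 h. At 9 h it had 0.93 to 1.1 in blocked and 1.08 to 1.21 in untreated cultures. It too was lower on every 26 h array, by -0.39 ± 0.06 (limma adjusted p = 0.00271). Gabpb1, a GABP subunit, differed by -0.65 (limma adjusted p = 0.00209), Yy1 by -0.45 (limma adjusted p = 0.00732) and the coactivator Pprc1 by -0.36 (limma adjusted p = 0.0268). Ppargc1a, the coactivator PGC-1 alpha, was higher by 0.46 (limma adjusted p = 0.0255), though dim, between -3.90 and -2.59 on all arrays. The rise lay in untreated cultures, with means of -2.71 at 26 h and -3.67 at 9 h. In blocked cultures the Ppargc1a means were -3.35 and -3.31. This split by treatment cannot be told apart from scan day. Of 34 assembly factors named outside the rule, 9 were higher and 2 lower, against 4.91% and 7.76% of all genes. Coa3, an assembly factor of complex IV, was higher by 0.44 (limma adjusted p = 0.00424), and the 2 lower ones were Sco1, a copper chaperone of complex IV, at -0.42 (limma adjusted p = 0.00224), and Higd1a at -0.52 (limma adjusted p = 0.00846), again named after their values were seen.

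Markers of the cell types that such cultures can hold were read beside these results. In the mean effect of blockade, 0 of 11 astrocyte, 0 of 9 microglia, 0 of 8 proliferation, 0 of 9 pan-neuronal and 0 of 11 meningeal, fibroblast and vascular markers were called. Of 11 oligodendrocyte markers 1 was lower (Cspg4, of oligodendrocyte precursors, -0.52, limma adjusted p = 0.0396), of 9 interneuron markers 1 was lower (Vip, -0.62, adjusted p = 0.0157), and of 7 excitatory neuron markers 3 were higher (Neurod2 1.23, Neurod6 0.55 and Slc17a7 0.52). Of all genes, 2.23% were higher and 2.22% lower, so that a count of 0 in lists of this size is near the background. Cspg4 differed by -1.07 at 9 h and 0.04 at 26 h, and its call was lost in 14 alternatives. The excitatory list had a median of 0.94 at 9 h and -0.09 at 26 h. These values at single times cannot be told apart from scan day. The interneuron list had a median of 0.15 in the mean effect. Between 26 h and 9 h the summed signal of the 9 pan-neuronal markers, in multiples of the array's 75th percentile, was 45.1 to 45.7 in blocked and 49.5 to 56.2 in untreated cultures at 26 h, and 50.0 to 52.3 in blocked and 39.6 to 56.0 in untreated cultures at 9 h. That of the 11 astrocyte markers was 66.1 to 83.5 in blocked and 70.6 to 102.0 in untreated cultures at 26 h, and 62.0 to 80.2 in blocked and 63.6 to 87.8 in untreated cultures at 9 h. Their part in the differences between times was not tested.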

How the data were processed

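Total RNA of 12 rat hippocampal cultures (4 groups of 3) was labelled with Cy3, 200 ng each, and hybridised to single-colour Agilent arrays. The processed spot intensities were deposited as Agilent Feature Extraction 10.5.1.1 wrote them (protocol GE1_105_Dec08), background-subtracted, per the file headers, which name build rn4. The deposited log2 table of the same arrays differed from log2 processed intensity by 1 constant per array; the rule for the constant is not given in the sources used here.

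Each level is log2 processed signal minus the array's 75th percentile. Spots with a feature outlier flag were dropped (3751 values), and same-probe spots averaged. Probes not well above background throughout any group were left out, which kept 24065 of 30367. Of 30367 probes, 18004 matched a RefSeq transcript of the GRCr8 gene table. The brightest probe stood for a gene. limma 3.58.1 in R 4.3.3 fitted 1 mean per group over 12 arrays and 21281 genes or targets, two-sided, with Benjamini-Hochberg adjustment and a threshold of 0.05. The script was tested on simulated data.

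Arrays of 1 time with the same replicate number shared deviations from their group means (r = 0.496, 0.177 and 0.538 at 9 h, 0.505, 0.178 and 0.657 at 26 h), all over 0.1, so the numbers were taken to pair the samples. The main fit left this pairing out, and fits with the replicate number as a block are given beside it. With that block 13.1% of all genes were called in the mean effect of blockade, against 4.45% in the main fit. The members and lists were chosen with earlier results of these data known. Genes were named by a rule: members with the largest called changes in each comparison, the highest and lowest mean effect in each complex, the brightest and dimmest member, core subunits, isoform pairs, and called genes of the other lists. Other genes are named to account for a count or after their values were seen. The number of arrays limits the precision.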

Additional observations from a re-analysis of the deposited data

Results flagged for a closer look

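For 9 of the 33 members named by the rule, against 28.6% of all genes, the blockade effect at 9 h differed from that at 26 h by the test of the difference itself (limma, adjusted p below 0.05), a contrast that cannot be told apart from scan day. Some of the 33 were named for their large single-time effects, so the count is no independent evidence. The 9 h effect minus the 26 h effect was 1.45 log2 for Cox6b2, 0.73 for Sdha, 0.64 for Atp5f1d and 0.50 for Uqcrfs1, the Rieske protein, whose effects at single times, 0.24 and -0.26, were not called. It was -1.44 for Cox6c-ps1, -1.04 for Ndufaf8, -0.82 for Sdhd, -0.75 for Sdhaf2 and -0.53 for Cox7a2. Within day 1, blocked 26 h minus untreated 9 h arrays ran over the 9 genes from -0.14 log2 (Cox6b2) to 0.40 (Sdhaf2), with 0.30 for Sdhd, 0.15 for Ndufaf8 and 0.11 for Sdha. Within day 2, blocked 9 h minus untreated 26 h arrays ran from -0.26 (Ndufaf8) to 0.16 (Cox6b2), with -0.22 for Cox7a2, -0.16 for Sdhd and -0.04 for Sdha. Each of these compares cultures of different times.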

How the results depend on the processing

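In the mean effect of blockade, 0 members were called in all alternatives but 2: 1 with the replicate block and 1 with slide as a random block. At 9 h the count of 12 became 24 under quantile normalization, 6 in the deposited table, 19 with the replicate block, 2 without replicate 3 of every group, and 5 to 15 when 1 array was left out. At 26 h the count of 12 became 26 under quantile normalization, 7 with scaling to the array median, 6 in the deposited table, 7 without the filter on dim probes, 43 with array weights, 0 without replicate 3 of every group and 2 to 28 when 1 array was left out. Between 26 h and 9 h the count of 4 became 1 in the deposited table, 2 without the filter, 14 with the replicate block, 10 with slide as a fixed and 20 as a random block, 0 without replicate 3 of every group, and 1 to 7 when 1 array was left out. The median at 26 h, -0.09, was 0.04 under quantile normalization, and Atp5mc2, not called at -0.06, was 0.31 there. The causes were not tested. Of 3582 alternative values of named genes, 3414 kept their side of the threshold, 180 of them with a changed sign where neither value passed, 126 lost the call, 41 gained it and 1 reversed. Among 17 genes with several kept probes, a probe had the other sign in 4 for the mean effect, 9 at 9 h, 8 at 26 h and 8 between times. Saturation limits 38 of 84 members.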
